A study of Mus musculus with 4 samples.

Results

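The chaperone and heat shock genes described here are those whose symbol in the platform annotation follows the mouse naming of the HSP70, HSP110, HSP90 and small heat shock families, the mitochondrial chaperonin pair Hspd1 and Hspe1, the J proteins (Dnaja, Dnajb and Dnajc) or the chaperonin subunits Cct2 to Cct8. The rule took 75 probe sets of 12488 on the array, which stand for 53 genes of 8251. The 53 genes were placed by the known location of their products into 31 cytosolic or nuclear, 6 endoplasmic reticulum (ER), 6 mitochondrial and 8 chaperonin (Cct) members, with Hspd1 and Hspe1 counted as mitochondrial. The other 2, Hspb11 and Dnajc4, were placed in no class; Hspb11 carries a heat shock name but encodes a subunit of the intraflagellar transport machinery. Both probe sets that the annotation gives to Dnajc19 together with a pseudogene were left out by the rule, as was Hsp90b1, whose symbol it does not match.

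Total RNA of mouse embryonic stem cells was measured on 4 Affymetrix arrays. All 4 samples are E14tg2a, a line kept without feeder cells. Control cells were set beside cells that express constitutively active Akt, a kinase of growth factor signalling (titled Akt12, here Akt cells). Both were sampled in 3000 U/ml of leukemia inhibitory factor (LIF) and after 4 days without it. Each group is 1 array, so no difference between 2 arrays has a replicate check. What vector, if any, the controls carry, what drives the Akt transgene and whether Akt12 is a single clone is not stated in the labels.

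Molecular chaperones bind unfolded or partly folded proteins and help them reach or regain their native shape. HSP70 proteins do so in cycles of ATP binding and hydrolysis, in which J proteins deliver the client and start hydrolysis and HSP110 proteins and other exchange factors release it. The chaperonins are closed chambers. TRiC, built of the Cct subunits and Tcp1, folds actin and tubulin in the cytosol, and Hspd1 with its lid Hspe1 does the same work for proteins imported into mitochondria. Heat and misfolded protein raise many of these genes through the factor HSF1, which binds heat shock elements, while unfolded protein in the ER acts through ATF6 and XBP1 on ER stress response elements. Embryonic stem cells express many chaperones at high levels without stress.

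The promoters of a few members are shown because such elements are known from heat shock and ER stress genes, so that the array values below can be read beside them. Of the 53 members, 45 matched a window in the RefSeq table of GRCm38.p6, 59 windows in all. A window runs from 250 bases before to 50 after each annotated start. The other 8 had no window and were not searched: Hsp90aa1, Hspa8, Hspa9, Hspb2, Cct4, Dnajc2, Dnajc5 and Dnajc11. A heat shock element of 3 alternating units was GAA, TTC and GAA with 2 bases of any kind between neighbours. On the other strand it reads TTC, GAA and TTC. It was found in windows of 4 members, Hspd1, Hspe1, Hsph1 and Dnajb6. These were 6 of 59 member windows, against 0.603% of all 32851 windows. The windows of Dnajb6 overlap and hold the same element, as do those of Hsph1, and Hspd1 and Hspe1 share theirs. The 6 windows are therefore not 6 separate sites, and the shares of windows are not counts of independent elements. The ER stress response element was CCAAT and CCACG with 9 bases of any kind between them, on either strand. It was found in 2 of 59 member windows, those of Hspa5 and Dnajc3, and in 0.119% of all windows. Elements of 2 units are more common. GAA then TTC at the same spacing was in 12 of 59 member windows (10 members) and 7.86% of all windows. TTC then GAA was in 10 of 59 (8 members) and 8.52%. A match with 3 units holds both of these forms. A match is a string of letters and does not show that a factor bound there.

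Hspd1 and Hspe1 lie head to head, and the stretch between their annotated starts (chr1:55087933-55088147, plus strand, reading toward Hspe1) is given whole with its overlapping heat shock elements in capitals. The 250 bases upstream of the start are given for Dnajb6 (chr5:29735648-29735897, plus strand), for the heat-inducible Hspa1b (chr17:34959239-34959488, minus strand), whose capitals mark an element of 2 units, and for Hspa5 (chr2:34771840-34772089, plus strand) and Dnajc3 (chr14:118937682-118937931, plus strand), whose capitals mark the ER stress response element. For Hsph1 the 3-unit match lies just after the annotated start, so only the 22 bases around it are given (chr5:149636287-149636308, minus strand). All are from RefSeq and are written 5′ to 3′.
Hspd1 and Hspe1: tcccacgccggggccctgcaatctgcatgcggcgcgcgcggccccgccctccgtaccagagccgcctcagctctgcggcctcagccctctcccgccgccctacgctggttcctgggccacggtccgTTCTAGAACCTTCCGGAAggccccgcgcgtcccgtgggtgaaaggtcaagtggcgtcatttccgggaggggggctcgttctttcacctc
Dnajb6: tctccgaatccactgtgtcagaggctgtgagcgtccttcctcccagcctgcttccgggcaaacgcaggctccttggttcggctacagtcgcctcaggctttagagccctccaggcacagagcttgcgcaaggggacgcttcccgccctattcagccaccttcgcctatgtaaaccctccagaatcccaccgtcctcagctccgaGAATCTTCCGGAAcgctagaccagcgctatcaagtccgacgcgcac
Hsph1: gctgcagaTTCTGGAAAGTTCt
Hspa1b: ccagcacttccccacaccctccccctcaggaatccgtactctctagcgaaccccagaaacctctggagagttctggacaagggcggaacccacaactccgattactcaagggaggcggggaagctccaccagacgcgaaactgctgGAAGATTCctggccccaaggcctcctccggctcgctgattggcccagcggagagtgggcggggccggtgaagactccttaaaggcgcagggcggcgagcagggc
Hspa5: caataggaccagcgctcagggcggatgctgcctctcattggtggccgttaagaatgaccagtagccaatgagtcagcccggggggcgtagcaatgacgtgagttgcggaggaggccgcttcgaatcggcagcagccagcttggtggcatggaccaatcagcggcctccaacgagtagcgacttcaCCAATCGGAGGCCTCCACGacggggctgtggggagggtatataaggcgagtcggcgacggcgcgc
Dnajc3: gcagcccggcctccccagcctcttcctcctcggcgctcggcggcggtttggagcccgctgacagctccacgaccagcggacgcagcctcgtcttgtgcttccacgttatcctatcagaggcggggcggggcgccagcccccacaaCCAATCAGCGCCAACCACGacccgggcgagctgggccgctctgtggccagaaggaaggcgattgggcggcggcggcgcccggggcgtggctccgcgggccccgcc

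The deposited values are intensities, 1 per probe set. They were quantile normalized here, values under a floor of 15.8 (the 40th percentile) were set to it, and differences are given on the log2 scale, where 1 is 2-fold. A gene with several probe sets is represented by the brightest. Of the 53 members, 48 were above the floor on at least 1 array and 44 on all 4. The 5 at the floor on every array were Hspb1, Hspa2, Dnajb2, Dnajb5 and Dnajb8; Hspa2 and Dnajb8 are known mainly from testis. Probe sets differ in how strongly they bind, so intensities are compared between arrays and not between genes. With 4 arrays in all, precision is limited throughout.

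On the stem cell label, 8 of 8 marker genes were above the floor on 3 arrays and 7 on that of control cells without LIF, with summed intensities of 7290 in LIF and 1762 after withdrawal in control cells, and of 8445 and 4437 in Akt cells. Control cells without LIF also had 9 of 10 fibroblast and feeder markers above the floor (5 or 6 on the others), summing to 646 against 299 to 342. Of these, Lum was just over the floor at 15.9, and Vim was at 19.3 against 13.8 to 18.2 on the others. Thy1 went the other way, at 27.6 there against 31.7 to 47.7. Dcn, a matrix gene of fibroblasts, was at 153 on that array, 16.6 in control cells with LIF and below the floor in both Akt groups. Differentiated lineage markers summed to 2521 there against 502 to 917, with 8 of 11 above the floor against 6 in control cells with LIF and 8 and 9 in Akt cells before and after withdrawal. Krt8, Krt18, Krt19 and Dab2 made up most of that sum, while Gata4, Gata6 and Sox17 were highest in Akt cells with LIF (59.1, 30.6 and 56.2). Gata4 was close to this in control cells without LIF, at 55.3 against 8.5 with LIF. The actin 3′ to 5′ ratio, a sign of RNA integrity, was 2.33, 1.66, 3.04 and 2.48 in the same order, and that of Gapdh was 3.03, 3.19, 3.05 and 2.46. In bulk RNA, fewer cells of a type and less RNA per cell cannot be told apart.

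**Figure D1:**
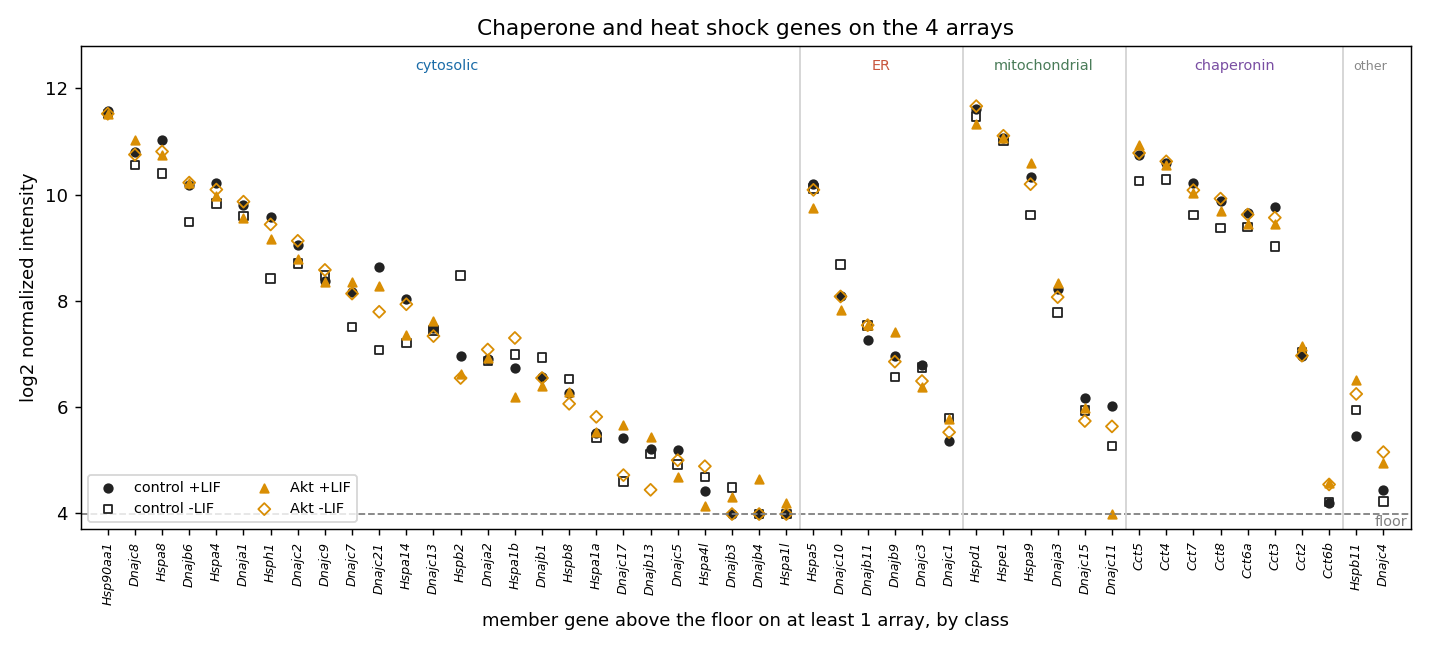
Log2 normalized intensity (y axis) of the 48 members above the floor on at least 1 array, grouped by class and sorted within it by mean signal, which is no ranking of abundance; each gene has 4 points, 1 per array, and the dashed line is the floor. Points of most genes lie close together, and the open squares of control cells without LIF are the lowest for 23 of the 44 members above the floor on all arrays.

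Most members stayed within 2-fold over all 4 arrays. Among the 44 above the floor on every array, 6 spanned at least 2-fold from the lowest to the highest array, which is 13.6%, and the median span was 0.52 on the log2 scale. Over all 5027 such genes 25.6% spanned as much, and the median span was 0.67. The array on which a member was lowest was most often that of control cells without LIF, for 23 of 44 (52.3%). That array was also the lowest for 38.1% of all genes, and it was the highest for 11.4% of the members and 29.8% of all genes.

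What the lines or media share was fitted with limma in an additive model of line and LIF over 6258 genes, whose error is the departure of the lines from a common response. For LIF withdrawal over both lines, 0 of 48 tested members passed an adjusted p of 0.05 (percent called over all genes 0.304), and 2 had an unadjusted p under 0.05 (4.17% of members against 9.32% of all genes). Those were Dnajc21 and Dnajc17. For Akt against control over both media, again 0 of 48 passed (percent called over all genes 0.623), and 1, Hspb2, had an unadjusted p under 0.05 (2.08% against 9.64%). The standard error of a member's log2 difference was between 0.32 and 0.50. A p that misses the threshold does not show that these levels were alike. The labels name no separate cultures, so the p-values speak only for the spread among these 4 samples.

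**Figure D2:**
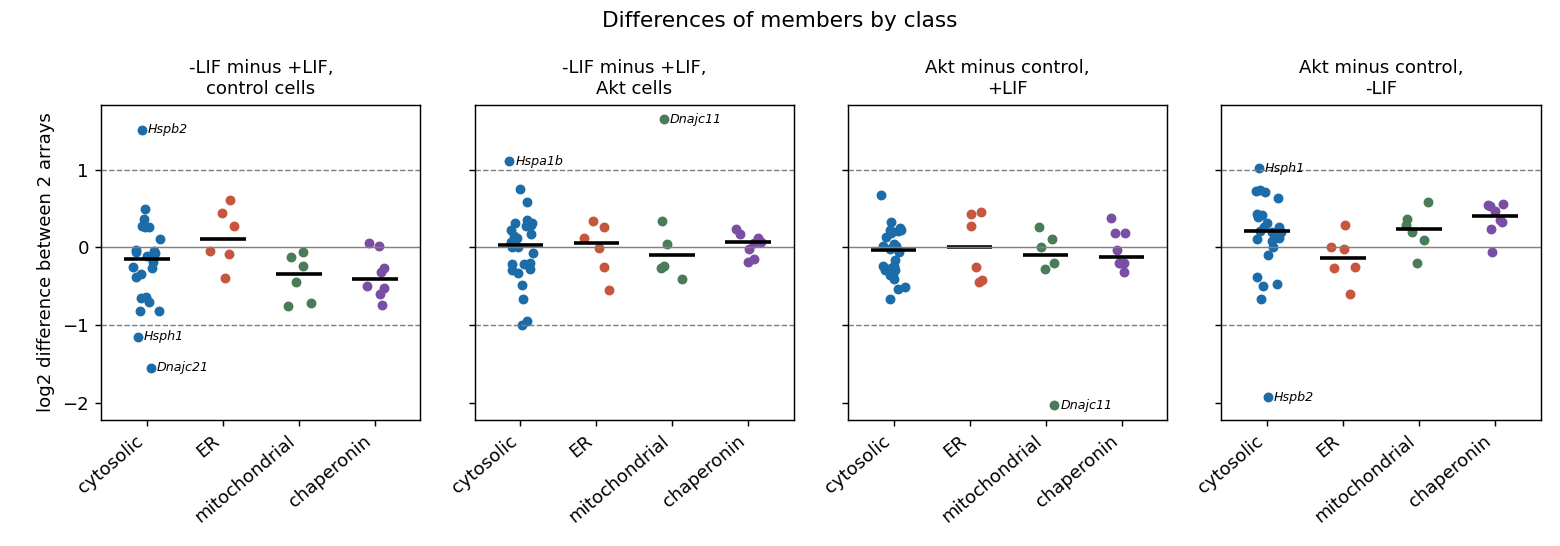
Log2 difference between 2 arrays (y axis) for each measured cytosolic, ER, mitochondrial and chaperonin member, in 4 panels for the 4 comparisons; points are genes, black bars are class medians and dashed lines mark 2-fold. The chaperonin median is at -0.40 for LIF withdrawal in control cells and at 0.41 for Akt against control without LIF, comparisons that share an array, and few members pass a dashed line; Hspb11 and Dnajc4 are not drawn.

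LIF withdrawal in control cells, which asks how chaperone transcripts stand when stem cells leave the undifferentiated state, went with lower levels more often than higher ones. Of 46 measured members, 1 was at least 2-fold higher and 2 were lower, against 7.39% and 6.4% of all genes (13.8% either way). At 1.5-fold, 11 members (23.9%) were lower and 2 (4.35%) higher, against 17.8% and 16.4% of all genes. In all, 33 members lay below 0 and 13 above, and of all genes 3099 of 5984 lay below 0. The median was -0.20 against -0.03 for all genes.

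The 2 members lower by 2-fold were Dnajc21 and Hsph1. Dnajc21 encodes a J protein of ribosome assembly. Its intensity (Entrez gene 78244) was 395 in control cells with LIF and 135 without, and 309 in Akt cells with LIF and 221 without. It was lower without LIF in both lines, 2.93-fold in control cells and 1.40-fold in Akt cells. The shared log2 difference was -1.02 ± 0.36 (SE), with an adjusted p of 0.422 in limma.

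Hsph1 encodes the HSP110 protein HSP105, which releases clients from HSP70, and carries the 3-unit heat shock element printed above. Its intensity (Entrez gene 15505) was 761 in control cells with LIF, 343 without, 572 in Akt cells with LIF and 693 without. Control cells without LIF were thus 2.22-fold below the same cells with LIF, while the Akt arrays differed by 1.21-fold in the other direction. Dnajb6, a J protein that holds aggregation-prone proteins in solution and has the same kind of element, was at 1162, 717, 1197 and 1197 in the same order, 1.62-fold lower in control cells without LIF. A dimmer probe set of Dnajb6 was at 183 and 91.1 on the control arrays, and its log2 difference between the lines with LIF was -0.53 where the brightest gave 0.04. The other 2 members found with that element, among those searched, differed less: Hspd1 had a log2 difference of -0.13 and Hspe1 of -0.05.

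Hspb2 was the member higher by 2-fold. It encodes a small heat shock protein known from heart and skeletal muscle. Its intensity (Entrez gene 69253) was 356 in control cells without LIF against 124 with LIF, 98.5 in Akt cells with LIF and 93.3 without. The array of control cells without LIF alone was high, 2.86-fold above control cells with LIF. A second probe set of Hspb2 was above the floor on that array alone, at 22. With the mean of both probe sets the log2 difference was 0.998, just under 2-fold. The summed fibroblast and differentiated lineage markers were highest on the same array, as given above, though not each gene of those lists, and their part in the Hspb2 value was not tested.

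Among the HSP70 proteins of the cytosol, the constitutive Hspa8 was at 2099 in control cells with LIF, 1349 without, 1708 in Akt cells with LIF and 1796 without. Withdrawal in control cells went with a 1.56-fold lower level. The heat-inducible copies Hspa1a and Hspa1b, which are nearly identical and may share signal, were at 45.3 with LIF and 43.0 without, and at 106 and 127, log2 differences of -0.08 and 0.26. Hspa4, an HSP110 protein, was at 1185, 912, 1003 and 1093, and its 5 probe sets were all lower without LIF in control cells, with log2 differences of -0.02 to -0.98. Hsp90aa1, the stress-inducible HSP90 of the cytosol, held the same rank on 3 arrays and so received the same normalized intensity there, 2941, against 3053 in control cells with LIF. Its deposited intensities were 3735, 2879, 2585 and 2682.

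Hspa14 and Dnajc2 form the ribosome-associated chaperone pair that meets new protein chains. Hspa14 was at 261 in control cells with LIF and 147 without, 1.77-fold lower. Dnajc2 was at 527 and 416, with a log2 difference of -0.34, and its other probe set gave -0.53. In Akt cells both were higher without LIF, Hspa14 at 164 and 244 and Dnajc2 at 438 and 560. Both genes thus differed one way between the control arrays and the other way between the Akt arrays, and neither reached 2-fold.

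Other J proteins of the cytosol and nucleus gave a mixed picture. Dnajc7, which binds both HSP70 and HSP90, was 1.57-fold lower after withdrawal in control cells (286 and 182). The nuclear J protein gene Dnajc17 was lower without LIF in both lines, at 42.6 and 24.2 in control cells and 50.4 and 26.2 in Akt cells, with a shared log2 difference of -0.88 ± 0.32 (SE) and an adjusted p of 0.422 in limma. Dnajc8, a J protein of the splicing machinery, was at 1796, 1502, 2099 and 1725. The classical HSP70 partners Dnaja1, Dnaja2 and Dnajb1 had log2 differences of -0.20, -0.04 and 0.37 in control cells. The histone chaperone gene Dnajc9 and the endosomal Dnajc13 had 0.10 and -0.05, and Dnajc5, which encodes a J protein of secretory vesicles, had -0.27. Dnajb3 was above the floor on 2 arrays and Dnajb4 and Hspa1l on 1, none above 25.1. Hspb8, a small heat shock protein that works with Bag3, was at 76.6, 92.3, 77.5 and 66.6.

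The chaperonin subunits were the class with the lowest median for LIF withdrawal in control cells, -0.40 over 8 genes against -0.03 for all genes. Cct3 was at 870 in control cells with LIF, 520 without, 696 in Akt cells with LIF and 757 without. Cct7 was at 1191, 783, 1039 and 1084 in the same order, and Cct8 at 945, 659, 824 and 971. Cct5 was at 1725, 1224, 1955 and 1762. For each of these subunits of the TRiC chamber the array of control cells without LIF was the lowest, and the other 3 lay closer together.

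Cct4 and Cct6a had the same order at the bottom, with 1243 on the lowest array against 1502 to 1580 on the others for Cct4 and 670 against 697 to 804 for Cct6a. Thus 6 of 8 chaperonin members (75.0%) were lowest on the array of control cells without LIF, against 38.1% of all genes. Cct2 (125, 130, 142 and 125) and the testis-type subunit Cct6b (18.2, 18.5, 23.6 and 23.2, close to the floor) were not. None of the 8 reached 2-fold, and Cct3 and Cct7 passed 1.5-fold. The other probe sets of Cct3 gave log2 differences of -1.12 and -0.03 where the brightest gave -0.74, and that of Cct5 gave -0.67 where the brightest gave -0.50. Over all genes, probe sets of 1 gene differed with an SD of 0.40 in this comparison, which bears on single genes and not on a class median.

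**Figure D3:**
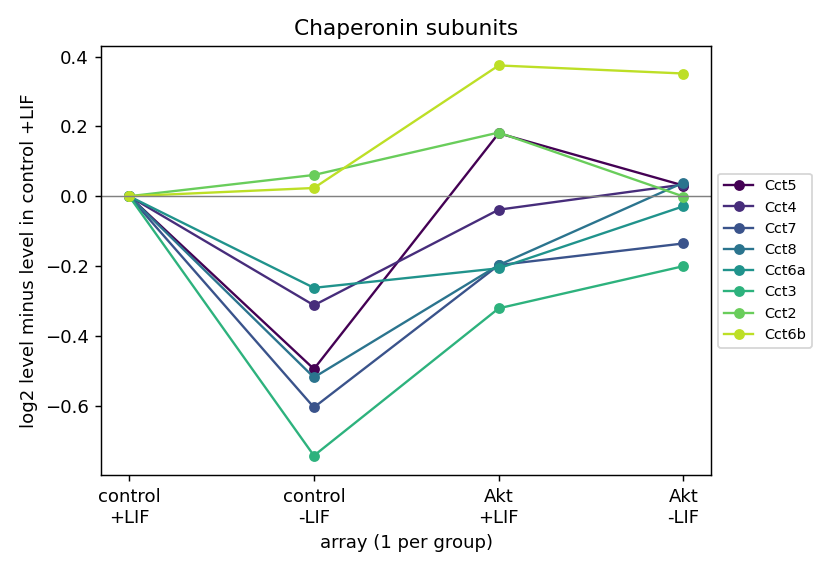
Log2 level of each of the 8 chaperonin members on each array minus its level in control cells with LIF (y axis), with 1 array per group on the x axis; lines join the points of 1 gene. Cct3, Cct4, Cct5, Cct6a, Cct7 and Cct8 have their lowest point in control cells without LIF, between -0.26 and -0.74, while Cct2 and Cct6b do not.

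The chaperonin median stayed below 0 under every scaling tried, at -0.40 with the 2% trimmed mean, -0.73 with the hybridization controls and -0.72 as deposited. Set against the median of all genes, which these scalings moved to 0.03, -0.28 and -0.26, it was -0.44, -0.45 and -0.46. Tcp1, the TRiC subunit outside the naming rule, was at 128 in control cells with LIF and 106 without, and at 108 in Akt cells with LIF and 138 without. Its log2 difference in control cells was -0.26. The same array also had the lowest actin ratio, the highest Gapdh ratio and the highest summed differentiation markers, and the part of these in the chaperonin values was not tested.

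Mitochondrial members were lower in control cells without LIF in 6 of 6 cases, and of all genes 3099 of 5984 were lower. The mitochondrial median was -0.34, which kept its sign under the 3 other scalings (-0.31 to -0.63). Hspa9, the mitochondrial HSP70 that pulls proteins through the import channel, was at 1292 in control cells with LIF, 785 without, 1550 in Akt cells with LIF and 1173 without. It was lower without LIF in both lines, 1.65-fold and 1.32-fold, with a shared log2 difference of -0.56 ± 0.32 (SE) and an adjusted p of 0.705 in limma. Its J protein partner Dnaja3 followed the same order, at 299, 220, 322 and 268. Dnajc15, a J protein of the inner membrane, lay between 53.2 and 72.1. The folding chamber did not: Hspd1 was at 3114, 2844, 2577 and 3249, and Hspe1 at 2139, 2061, 2146 and 2206. These genes share the promoter stretch printed above, and their highest arrays were both that of Akt cells without LIF. A dim probe set of Hspd1 gave log2 differences of -0.60 in control cells and 1.15 in Akt cells, away from the -0.13 and 0.33 of the brightest.

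ER members had a median of 0.11 in control cells without LIF, 3 above and 3 below 0, and became -0.19 when scaled to the hybridization controls and -0.18 as deposited. Those scalings moved all genes alike, to medians of -0.28 and -0.26, and relative to all genes the ER median was 0.14, 0.09 and 0.09. Hspa5, the HSP70 of the ER (BiP), was at 1173 in control cells with LIF, 1107 without, 858 in Akt cells with LIF and 1089 without. Its cofactor Dnajc3, which shares the ER stress response element, was at 110, 107, 82.5 and 89.6. For both genes the control arrays were within 1.06-fold of each other, for Dnajc3 by its brightest probe set. The other 2 probe sets of Dnajc3 above the floor departed from this. Their log2 differences in control cells were 0.43 and 0.71. Dnajc10, an ER disulfide reductase, was at 271 in control cells with LIF and 411 without, 1.52-fold higher, and at 226 and 271 in Akt cells. Dnajb9, an ER stress-inducible J protein, had the other direction in both lines, at 124 and 94.3 in control cells and 169 and 116 in Akt cells. Its second probe set was near or below the floor. Dnajb11 (154 to 186) and Dnajc1 (40.8 to 55.3) stayed within 1.5-fold over the 4 arrays.

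In Akt cells, LIF withdrawal went with few differences in chaperone levels. Of 48 measured members, 2 were at least 2-fold higher and 0 lower, against 3.01% and 3.65% of all genes (6.66% either way). At 1.5-fold, 3 were higher and 3 lower (6.25% each), against 10.8% and 10.7% of all genes. The median was 0.05 against 0.01 for all genes, and class medians lay between -0.10 for mitochondrial and 0.07 for chaperonin members. With the hybridization controls as the scale all 4 class medians were below 0 (-0.27 to -0.37), where the median of all genes was -0.31.

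Hspa1b and Dnajc11 were the members higher by 2-fold. Hspa1b (Entrez gene 15511) was at 73.0 in Akt cells with LIF and 157 without, 2.16-fold higher. Akt cells with LIF were the lowest of the 4 arrays for this gene and those without LIF the highest. Its near copy Hspa1a went from 46.0 to 56.2, which is 1.22-fold. Scaled to the hybridization controls the log2 difference of Hspa1b was 0.76, under 2-fold, where the median of all genes was -0.31.

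Dnajc11, a J protein tied to the inner membrane folds of mitochondria, was below the floor in Akt cells with LIF alone. Its intensity (Entrez gene 230935) was 64.6 in control cells with LIF, 38.4 without and 49.6 in Akt cells without LIF. The difference in Akt cells is therefore a bound, at least 3.14-fold higher without LIF. With a floor at the 60th percentile it was 0.05 on the log2 scale. The sperm and cilium gene Dnajb13 lay just inside the limit, with a log2 difference of -0.999 (43.3 and 21.7), and Hspa4l, an HSP110 protein, was 1.68-fold higher near the floor (17.5 and 29.5). The chaperonin members varied little among themselves, from -0.18 for Cct2 to 0.24 for Cct8.

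**Figure D4:**
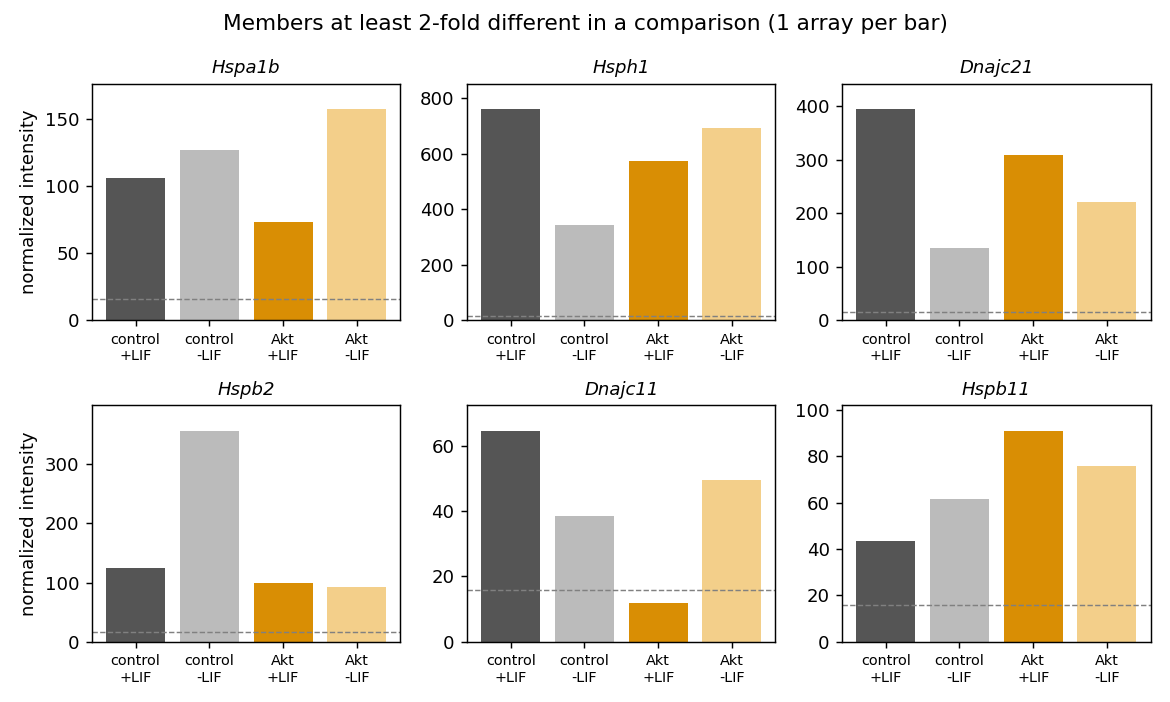
Normalized intensity (y axis, from 0) of the 6 members at least 2-fold different in any of the 4 comparisons, with 1 bar per array and no replicates; the dashed line is the floor. Hsph1 and Dnajc21 are lowest and Hspb2 is highest in control cells without LIF, while Dnajc11 is below the floor in Akt cells with LIF alone.

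Akt cells with LIF were set against control cells with LIF, which asks how active Akt goes with chaperone levels in cells kept in LIF. Differentiated lineage markers were not alike on these arrays. Of 9 measured, 2 were at least 2-fold higher in Akt cells and 1 lower, against 3.5% and 3.64% of all genes. Of 48 measured members, 1 was at least 2-fold higher and 1 lower, against 3.5% and 3.64% of all genes (7.14% either way). The median was -0.03 against 0.01 for all genes, with 23 members above 0 and 25 below. Of all genes, 3010 of 5938 lay above 0 and 2923 below. The lower member was Dnajc11, at least 4.10-fold, which rests on the same array below the floor. The higher one was Hspb11, the transport gene, at 91.0 in Akt cells against 43.6 in control cells, 2.09-fold. Hspb11 was also higher in Akt cells without LIF, at 75.7 against 61.5. Its log2 difference with LIF was 0.55 as deposited, where the median of all genes was -0.52. With the floor at the 60th percentile it was 0.93, and that of Dnajc11 was -0.44. The 0.55 and 0.93 are under 2-fold, the first without regard to the shift of all genes.

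Cytosolic HSP70, HSP110 and HSP90 genes lay below 0 in 7 of 9 cases in this comparison, with a median of -0.29. The cytosolic J proteins lay below 0 in 6 of 15 cases and above in 9, with a median of 0.04. Of all genes, 2923 of 5938 lay below 0. Hspa14 was 1.59-fold lower (261 and 164), Hspa1b 1.45-fold (106 and 73.0), Hsph1 1.33-fold and Hspa8 1.23-fold, none past 2-fold. Class medians were -0.04 for cytosolic, 0.01 for ER, -0.10 for mitochondrial and -0.12 for chaperonin members, against 0.01 for all genes. The hybridization controls put the cytosolic and chaperonin medians at 0.06 and 0.04 and that of all genes at 0.10, so that relative to all genes they were -0.05 and -0.07, against -0.05 and -0.13 before. In the ER class, Hspa5 and Dnajc3 were lower in Akt cells with LIF (1.37-fold and 1.34-fold) and Dnajb9 was higher (1.37-fold). For Dnajc3 this holds for the brightest probe set (-0.42 on the log2 scale), while the other 2 above the floor gave 0.04 and 0.37.

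Without LIF, Akt cells had higher levels than control cells for 33 of 46 measured members and lower for 12. Of all genes, 3307 of 6009 were higher and 2695 lower. The median was 0.25 against 0.06 for all genes. Of the 46 members, 1 was at least 2-fold higher and 1 lower, against 5.87% and 8.12% of all genes (14% either way). At 1.5-fold, 6 (13.0%) were higher and 3 (6.52%) lower, against 16.7% and 15% of all genes. This comparison shares the array of control cells without LIF with that of LIF withdrawal in control cells, so values of opposite sign in these can come from that array alone.

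Hsph1 was 2.02-fold higher in Akt cells without LIF (693 against 343) and Hspb2 3.82-fold lower (93.3 against 356). As deposited, the log2 difference of Hsph1 was 0.80, under 2-fold, where the median of all genes was -0.23. The shared log2 difference of Hspb2 between the lines was -1.14 ± 0.41 (SE), with an adjusted p of 0.364 in limma. Dnajc4 was 1.91-fold higher (35.4 and 18.6), Dnajb6 1.67-fold, Hspa14 1.66-fold, Dnajc21 1.64-fold and Dnajc7 1.55-fold. The chaperonin median was 0.41, above 0 under the other scalings too (0.20 to 0.53), with 7 of 8 subunits above 0 and Cct2 at -0.06. The cytosolic median was 0.21 and became -0.05 as deposited, where the median of all genes was -0.23. Relative to all genes it was 0.14 and 0.18. The mitochondrial median was 0.24, and the ER median was -0.14.

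Distances between arrays in these genes were taken as the SD of log2 differences. Over the 44 members measured on every array it was 0.33 between Akt cells without LIF and control cells with LIF, with 0 members 2-fold apart, and 0.34 between the lines with LIF, with 1. Control cells with and without LIF had an SD of 0.51 with 3 members 2-fold apart, and Akt cells with and without LIF 0.38 with 1. Over all 5027 genes the SDs were 0.41, 0.53, 0.71 and 0.51 for the same pairs, larger than among the members each time. In these pairs 136, 299, 627 and 287 genes were 2-fold apart. The higher signal of the members, given above, was not matched here, and its part was not tested.

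The partners of these chaperones were taken from lists of co-chaperones, ER folding genes, mitochondrial folding genes and TRiC partners. No gene of these lists passed an adjusted p of 0.05 in limma for LIF or for line. Of 14 measured co-chaperones of HSP70 and HSP90, 1 was at least 2-fold lower and 0 higher for withdrawal in control cells, against 6.4% and 7.39% of all genes, and the median was -0.41 against -0.03. In all, 9 of the 14 lay below 0 and 5 above, the highest at 0.64 (Bag3), and of all genes 3099 of 5984 lay below 0. The gene lower by 2-fold was Fkbp5, an HSP90 cofactor of steroid receptors, at 231 with LIF and 93.9 without, and at 255 and 214 in Akt cells. It was also the 1 of 14 measured genes of the list 2-fold higher in Akt cells without LIF than in control cells, against 5.87% of all genes.

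Of 15 measured ER folding and unfolded protein response genes, 0 were 2-fold different for withdrawal in control cells, and the median was -0.10 against -0.03 for all genes. In Akt cells 4 of 16 were at least 2-fold lower without LIF and 0 higher, against 3.65% and 3.01% of all genes. They were the stress factor genes Ddit3, Atf4 and Atf6 and the ER degradation gene Herpud1. Herpud1 was at 121 in Akt cells with LIF and 50.8 without, and Atf4 at 458 and 199. On the control arrays Herpud1 was at 52.4 and 58.2 and Atf4 at 232 and 217, so the array of Akt cells with LIF was high for both. Ddit3 was above the floor on that array alone, at 82.0. On that same array Hspa5 was at its lowest, as was Dnajc3 by its brightest probe set and not by the other 2 above the floor, and Hsp90b1, the HSP90 of the ER, was at 707, 640, 564 and 603 over the 4 arrays.

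Mitochondrial folding and protease genes were below 0 in 6 of 6 measured cases for withdrawal in control cells and in 5 of 6 in Akt cells. Of all genes, 3099 of 5984 and 2901 of 5945 lay below 0. The medians were -0.56 against -0.03 for all genes in control cells and -0.47 against 0.01 in Akt cells. Grpel1, which recharges Hspa9, was at 178 in control cells with LIF and 90.6 without, and at 256 and 183 in Akt cells. Clpp, the subunit of a matrix protease, was at 392 and 201 in control cells and 401 and 424 in Akt cells. They were the 2 of 6 measured genes of this list at least 2-fold higher in Akt cells than in control cells without LIF. The share of all genes was 5.87%. That comparison uses the same array of control cells without LIF as the withdrawal values. Of 9 measured TRiC and prefoldin partners, 0 were 2-fold different in any of the 4 comparisons; Pfdn2 had a log2 difference of -0.74 in control cells and Pdcl3 of 0.82. Of the heat shock factor list, Hsf2 and Hsf4 were at the floor on all arrays. Hsbp1, which binds HSF1, had a log2 difference of 0.45 in control cells, and Hsf1 was not analysed here.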

How the data were processed

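RNA from 4 samples was measured on 1 Affymetrix array each. The deposited intensity values are linear with 1 decimal; the software and the scaling behind them were not given in the sources used here. Their 2% trimmed means were 121 (control, LIF), 97.4 (control, no LIF), 81.7 (Akt, LIF) and 80.3 (Akt, no LIF). After the array controls were set aside, 12422 probe sets were quantile normalized (limma 3.58.1, R 4.3.3), floored at the 40th percentile and log2 transformed. The platform annotation gave 10833 probe sets 1 symbol, 396 several and 1193 none, and symbols were updated through gene identifiers in RefSeq's GRCm38.p6 table (10817 found). The brightest probe set stood for each of 8251 genes. Within a comparison there is no test, and members past 2-fold were counted beside the share of all genes. limma (lmFit, eBayes, two-sided, Benjamini-Hochberg over 6258 genes) used an additive model with 1 residual and 8.69 prior degrees of freedom. The limma fit and the 2-fold count were tested on simulated log2 values with the same effect of LIF in both lines. Normalization, the choice of probe set and the class medians were not part of that test. Values on all arrays were to be given for members 2-fold different in a comparison, members called by limma and the brightest 3 of each class, with probe sets departing by over 0.5, and for list genes 2-fold different or needed as partners; other members named with values were chosen after these were seen. Members, classes and lists were chosen with earlier results of these data known. Alternatives were 3 other scalings, floors at the 20th and 60th percentiles, the mean of probe sets, updated symbols, a 1.5-fold threshold and genes above the floor on all arrays.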

Additional observations from a re-analysis of the deposited data

Results flagged for a closer look

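In the members named here, 1 line or medium was at least 2-fold different while the other went the opposite way; with 1 array per group this difference was not tested. For Dnajc11 the Akt response to LIF withdrawal minus the control response was 2.40 on the log2 scale (1.65, a bound, against -0.75). For Hsph1 it was 1.43 (0.28 against -1.15), and for Hspb2 -1.60 (-0.08 against 1.52). The same 2.40 and 1.43 are the differences between the lines without LIF minus those with LIF for Dnajc11 and Hsph1, since both are made of the same 4 arrays.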

How the results depend on the processing

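No member passed limma for LIF or for line under any of the 8 alternatives to each fit. Over all genes, 19 were called for LIF and 39 for line in the main fit. With the other scalings, other floors and the mean of probe sets, 0 genes were called for LIF and 0 to 17 for line. With only genes above the floor on all arrays, 118 and 135 of 5027 were called. Where no gene passed, no member could, so those fits are no check on the members. Members at least 2-fold different for LIF withdrawal in control cells numbered 3, and 7 when scaled to the hybridization controls, 7 as deposited, 5 with the floor at the 20th percentile and 13 at 1.5-fold. For LIF withdrawal in Akt cells they numbered 2, with 1 at the floor of the 60th percentile and 6 at 1.5-fold. For Akt against control with LIF they numbered 2, with 5 as deposited, 4 with the floor at the 20th percentile, 0 at the 60th and 4 at 1.5-fold. Without LIF they numbered 2, and 9 at 1.5-fold. Class medians were compared with 1 SD between probe sets of a gene (0.34 to 0.40), in the absence of replicates. This is a wide limit for a median, and staying within it, as 106 of 112 did, does not show stability. Those beyond it were, in Akt cells after LIF withdrawal, the ER and chaperonin medians scaled to the hybridization controls (-0.30 and -0.28) and, for Akt against control with LIF as deposited, the cytosolic, ER, mitochondrial and chaperonin medians (-0.60, -0.56, -0.69 and -0.61). As deposited, the median of all genes in that comparison was -0.52, since the arrays are then unscaled. Of 54 values of single members past 2-fold under alternatives, 47 stayed past it, 7 did not and 0 changed sign. Membership by updated symbol gave the same 53 genes. No paired analysis was possible because each group holds 1 array and the labels give no replicate numbers, and leaving out an array leaves no comparison or no residual error.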
